A study of Mus musculus with 13 samples.

Results

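The RNA recovered by a control antibody was compared between RAW 264.7 macrophages treated with LPS for 2 h and untreated RAW 264.7 macrophages, for all 52 RNAs of the deposited table. RAW 264.7 is an established mouse macrophage line. The antibody is directed against luciferase (LUC), a protein that these cells do not make, and serves as the control for an immunoprecipitation (IP) of P23, a co-chaperone of HSP90 encoded by Ptges3. The cells were UV-crosslinked, and the IPs were made from cytoplasmic extract. Of the 13 libraries, 5 are LUC IPs: 2 of cells given 10 ng/ml LPS for 2 h and 3 of untreated cells (0 h). The other libraries are 3 P23 IPs of 2 h and 3 of 0 h, and 1 input of each time. A further LUC IP library of 2 h was removed by the authors as an apparent outlier and was not used here.

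The table holds only RNAs whose recovery from untreated cells was called higher by the study with P23 than with LUC. The LUC values of 0 h were used in that choice, so an RNA with a low LUC value at 0 h was more likely to enter the table. This favors rises from 0 h to 2 h in the LUC IP, and its part in the calls was not tested. Over all 52 RNAs the counts added up to 4064 and 5325 in the LUC IPs of 2 h and 3751, 4631 and 7186 in those of 0 h. These sums are not library sizes. A count divided by the size factor of its library, which was recovered from the deposited variance-stabilized values, is called a normalized count here. Differences were tested with edgeR's quasi-likelihood test over all 11 IP libraries, with p-values adjusted over the 52 RNAs, and the threshold for a call was an adjusted p of at most 0.05. In extracts of whole cultures, a change in the number of RNA molecules per cell and a change in the share of cells that hold the RNA cannot be told apart. Of 8 macrophage marker genes looked up, 3 were in the table, Tnfrsf11a and Cd101 among them, and none of the markers of T cells, B cells, fibroblasts or epithelium were. As the table is a selection by IP, the presence or absence of a marker there does not test the identity of the cells.

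LPS is a component of the outer membrane of Gram-negative bacteria. It is sensed by macrophages through the receptor TLR4, which activates NF-kB and MAP kinases and, through secreted interferon, STAT factors, and so changes the transcription and the stability of many mRNAs. A control IP recovers RNA that sticks to the beads or to the antibody. How much of an RNA is recovered there can depend on its level in the extract and on how readily it is carried along. The LUC IP of both times was therefore set beside the inputs and beside the P23 IPs.

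In the LUC IP, 8 of the 52 RNAs were called higher after 2 h of LPS (15.4% of the table) and 6 were called lower (11.5%), together 26.9%. Here the RNAs described and all RNAs tested are the same 52, so these shares are also the background. The largest rise was that of Pim1 mRNA, followed by the miR-22 host RNA Mir22hg and by Hlx, E2f5 and Cldnd1 mRNAs. The falls included those of Prr5, Atxn7l1, 4632404H12Rik, Lfng and Zbtb7b. The median log2 fold change of the 51 RNAs with a fold was -0.13, the middle 50% lay between -0.45 and 0.39, and 42 RNAs lay within 1 of 0. At an unadjusted p under 0.05, 11 RNAs were higher and 12 lower. Every library of 2 h lay above every library of 0 h for 12 RNAs (23.1%) and below for 15 (28.8%), and all 14 called RNAs were among these 27. With so few libraries, groups can also separate in this way without a true change. Among the 47 RNAs with a mean normalized count of 20 or more, the libraries of 2 h differed by more than 1.5-fold for 7, Kif15, Kif1b, Ppia, F730043M19Rik, Atxn7l1, Dlg4 and Cd101. At 0 h, replicate 1 was the highest for 29 of the 47 RNAs and replicate 2 the lowest for 31. The counts rested on single libraries. Leaving out LUC 2 h replicate 2 gave 5 higher and 1 lower, leaving out LUC 2 h replicate 1 gave 6 and 3, and leaving out LUC 0 h replicate 2 gave 8 and 11. They also moved with the scale between libraries: 10 RNAs were called higher and 14 lower with equal summed counts over the table, and 12 higher and 8 lower with TMM as well as with equal medians.

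**Figure D1:**
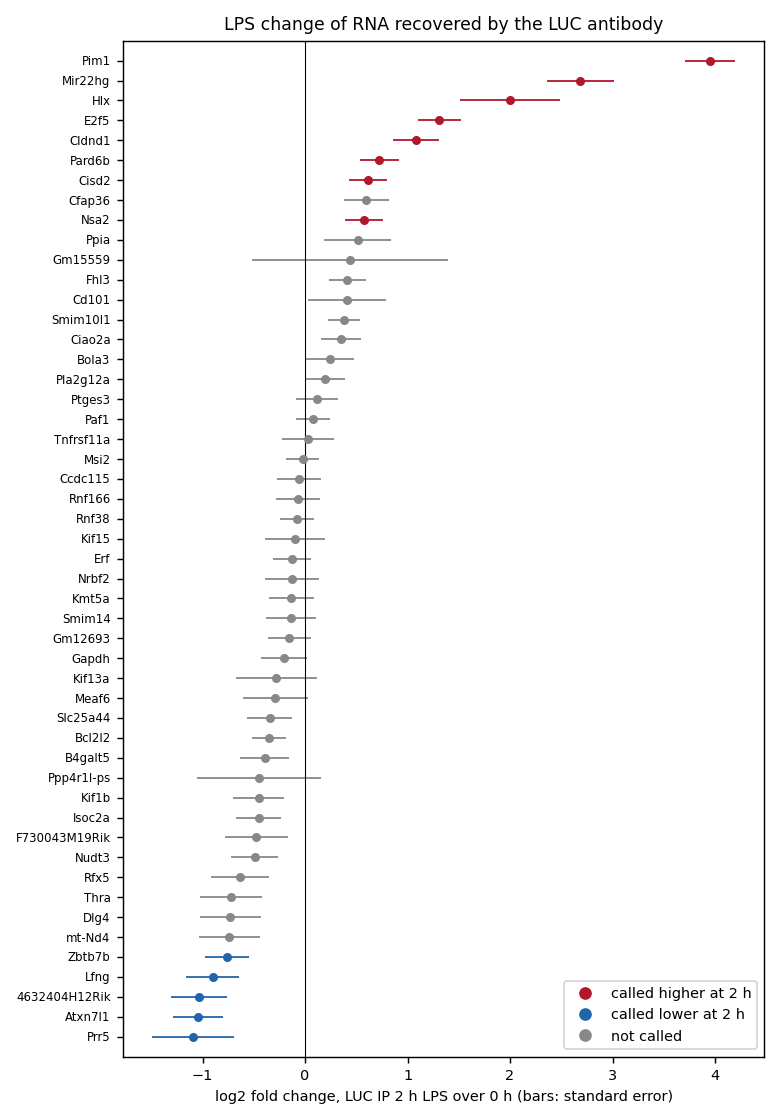
Log2 fold change of the LUC IP, 2 h of LPS over 0 h (horizontal axis), for 50 RNAs, sorted by size. Points are edgeR estimates and bars standard errors, and the colors mark the 8 RNAs called higher, 5 called lower and those not called. Pim1 stands apart at 3.95, most RNAs lie near 0 and Prr5 is lowest of those shown at -1.09.

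Pim1 encodes a serine/threonine kinase that promotes survival and is a known target gene of JAK-STAT and NF-kB signaling. It lies on chromosome 17 of GRCm38, 29490753 to 29496112, on the plus strand. Pim1 mRNA was at 591 and 554 normalized counts in the LUC IPs of 2 h, and at 52.1, 24.6 and 38.4 in those of 0 h. Both libraries of 2 h lay far above all 3 of 0 h. The log2 fold change was 3.95 ± 0.25 (SE, edgeR adjusted p = 4.7e-10). The input held 507 normalized counts at 2 h and 23.3 at 0 h. Exons of Pim1 overlap those of Gm26885 on the other strand. Of the 11 LPS response genes looked up, Pim1 was the only one in the table. The promoter is shown because the RNA had the largest change of the table. It spans chr17:29490535-29490834 on the plus strand of GRCm38.p6 (RefSeq) and holds none of the 4 motifs searched, so it has no capitals.
Pim1 promoter: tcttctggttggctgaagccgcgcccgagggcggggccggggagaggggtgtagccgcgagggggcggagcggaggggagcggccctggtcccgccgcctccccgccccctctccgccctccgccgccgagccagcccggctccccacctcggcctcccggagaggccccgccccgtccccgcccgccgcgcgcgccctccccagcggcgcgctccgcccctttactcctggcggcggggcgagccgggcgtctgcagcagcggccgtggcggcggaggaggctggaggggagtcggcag

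Mir22hg is a long non-coding RNA that hosts the precursor of miR-22, a microRNA that represses mRNAs through sites complementary to its seed. It lies on chromosome 11, 75461539 to 75466676, on the plus strand. The hairpin of miR-22, at chr11:75463716-75463810, lies in exon 2 of Mir22hg, which begins at 75463693. Both mature miRNAs are shown because the host RNA is the called non-coding RNA with the largest change, and capitals mark the seed, bases 2 to 8.
mmu-miR-22-5p: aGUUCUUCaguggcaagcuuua
mmu-miR-22-3p: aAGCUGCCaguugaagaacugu
These lie at chr11:75463734-75463755 and chr11:75463772-75463793 on the plus strand (RefSeq, GRCm38.p6). The table does not measure mature miRNAs.

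Mir22hg was at 59.7 and 53.3 normalized counts in the LUC IPs of 2 h, and at 2.2, 10.4 and 10.4 in those of 0 h. Both libraries of 2 h were high and all 3 of 0 h were low, with no overlap. The log2 fold change was 2.69 ± 0.33 (SE, edgeR adjusted p = 5.7e-06). These values rest on few reads, 71 raw counts over the libraries of 2 h and 19 over those of 0 h, and an exact 95% interval of 3.86 to 11.4 for the ratio of 6.48 per size factor, which covers counting error only. The input held 14.7 normalized counts at 2 h and 4.92 at 0 h. Exons of Mir22hg overlap those of Tlcd2 on the same strand, so reads of a shared stretch may be missing or come from the other gene.
The promoter is shown because it holds a TGACG, the core of the cAMP response element (CRE). It spans chr11:75461289-75461588 on the plus strand (RefSeq, GRCm38.p6), from 250 bases before to 50 after the start, and the capitals mark the TGACG, at position 75 of the window.
Mir22hg promoter: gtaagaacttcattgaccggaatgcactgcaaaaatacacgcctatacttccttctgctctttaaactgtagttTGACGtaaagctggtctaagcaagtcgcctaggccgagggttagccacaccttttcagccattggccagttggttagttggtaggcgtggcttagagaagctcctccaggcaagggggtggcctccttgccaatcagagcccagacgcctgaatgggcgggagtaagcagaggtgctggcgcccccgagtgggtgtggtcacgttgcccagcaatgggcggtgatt
In the RefSeq table, 12 of the 14 called RNAs have 19 promoters of this length between them. TGACG, searched on both strands, was in 5 of the 19 promoters and in 20.8% of all 32851 promoters. The 5 were promoters of Cisd2, Cldnd1, Mir22hg, Nsa2 and Pard6b. The NF-kB consensus was in a promoter of Pard6b and in 4.51% of all, and the STAT motif TTCNNNGAA in one of Atxn7l1 and in 8.3% of all. The AP-1 motif TGANTCA was in none of the 19 and in 7.81% of all. Such matches are descriptions of the letters and do not show a bound site.

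Transcription factor mRNAs were divided: of 8, Hlx and E2f5 were called higher, 2 were called lower, Zbtb7b among them, and 4 were not called (median log2 fold change -0.38, against -0.13 for all RNAs). Over all 52 RNAs, 15.4% were called higher and 11.5% lower. Hlx encodes a homeobox factor of blood and immune cells and lies on chromosome 1, 184727140 to 184732619. Its mRNA was at 18.1 and 12.6 normalized counts in the LUC IPs of 2 h, and at 2.2, 5.2 and 3.1 in those of 0 h. Both libraries of 2 h lay above those of 0 h. The log2 fold change was 2.00 ± 0.48 (SE, edgeR adjusted p = 0.0051), with 19 raw counts over both libraries of 2 h and 8 over those of 0 h. Low LUC values of 0 h favored entry to the table, and their part in this rise was not tested. The call of Hlx was lost without LUC 2 h replicate 1, at an adjusted p of 0.052 from edgeR and a log2 fold change of 1.75.

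E2f5 encodes an E2F family factor that acts mostly as a repressor of cell cycle genes, and it lies on chromosome 3, 14578641 to 14606309. E2f5 mRNA was at 59.7 and 56.1 normalized counts in the LUC IPs of 2 h, and at 21.7, 23.3 and 23.9 in those of 0 h. Replicates lay close together at both times and the groups did not overlap. The log2 fold change was 1.31 ± 0.21 (SE, edgeR adjusted p = 0.00014). Exons of E2f5 overlap those of 1810022K09Rik on the other strand, and the authors counted reads without regard to strand. Reads of the 2 genes cannot be told apart in the shared stretch and may be missing from the count.

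Zbtb7b encodes a zinc finger factor known from CD4 T cell development. Its mRNA was at 137 and 136 normalized counts at 2 h, and at 293, 170 and 239 at 0 h, without overlap (log2 fold change -0.76 ± 0.21 SE, edgeR adjusted p = 0.012). The spread of Zbtb7b was wide at 0 h and narrow at 2 h, and its call was lost without either LUC library of 2 h (edgeR adjusted p up to 0.12). Its exons overlap those of Gm15417 on the other strand. Thra, a thyroid hormone receptor, and Rfx5, a factor for MHC class II genes, had log2 fold changes of -0.72 and -0.63 and were not called (edgeR adjusted p = 0.079 and 0.097).

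After LPS, mRNAs of 2 membrane-associated proteins were higher. Of 5 receptor, scaffold and junction mRNAs, 2 were called higher and none lower, against 15.4% and 11.5% of all 52 RNAs. Their median log2 fold change was 0.41, and their median log2 ratio in the input was 0.25. Cldnd1 encodes a claudin domain protein and lies on chromosome 16, 58727910 to 58734251. Cldnd1 mRNA was at 77.7 and 72.9 normalized counts in the LUC IPs of 2 h, and at 26.1, 29.8 and 45.7 in those of 0 h. Even the highest library of 0 h lay below both of 2 h (log2 fold change 1.08 ± 0.22 SE, edgeR adjusted p = 0.0016). Pard6b encodes a scaffold of the cell polarity complex. Its mRNA was at 68.7 and 71.5 normalized counts at 2 h, and at 34.7, 41.4 and 47.8 at 0 h (log2 fold change 0.73 ± 0.19 SE, edgeR adjusted p = 0.0080). The groups did not overlap, but without LUC 2 h replicate 2 the call was lost (edgeR adjusted p = 0.10). Dlg4, a scaffold protein of synapses, was at 18.1 and 29.4 normalized counts at 2 h, and at 43.4, 33.6 and 44.7 at 0 h, and was not called (edgeR adjusted p = 0.075). Tnfrsf11a, the receptor for the osteoclast factor RANKL, was at 808 and 940 normalized counts at 2 h, and at 916, 624 and 1037 at 0 h, with overlap (log2 fold change 0.03).

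Smaller rises were called for Cisd2 and Nsa2. Cisd2 encodes an iron-sulfur protein of the endoplasmic reticulum and outer mitochondrial membrane. Cisd2 mRNA was at 483 and 561 normalized counts in the LUC IPs of 2 h, and at 334, 314 and 373 in those of 0 h (log2 fold change 0.61 ± 0.19 SE, edgeR adjusted p = 0.018). Both libraries of 2 h lay above those of 0 h, and the call of Cisd2 was lost without LUC 2 h replicate 2 (edgeR adjusted p = 0.18) and in a fit of the 5 LUC libraries alone (edgeR adjusted p = 0.059). None of the other 4 mitochondrial and iron-sulfur mRNAs was called. Among them mt-Nd4, which encodes a subunit of respiratory complex I, was at 307 and 318 normalized counts at 2 h, and at 675, 374 and 530 at 0 h. These groups did not overlap either (log2 fold change -0.74, adjusted p = 0.075 from edgeR). Nsa2 encodes a factor for the assembly of the large ribosomal subunit. Its mRNA was at 97.6 and 96.8 normalized counts at 2 h, and at 60.8, 60.8 and 71.7 at 0 h, without overlap (log2 fold change 0.58 ± 0.19 SE, edgeR adjusted p = 0.028). The call of Nsa2 was lost when either LUC library of 2 h, or replicate 1 or 2 of 0 h, was left out (edgeR adjusted p up to 0.13), with DESeq2 (adjusted p = 0.077) and with the LUC libraries alone (edgeR adjusted p = 0.052). Its exons overlap those of Fam169a and Gfm2 on the other strand.

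The other falls described here were in mRNAs of different function and 1 non-coding RNA. Lfng encodes a Golgi glycosyltransferase that modifies Notch. Its mRNA was at 28.9 and 25.2 normalized counts in the LUC IPs of 2 h, and at 63.0, 37.5 and 54.0 in those of 0 h (log2 fold change -0.90 ± 0.26 SE, edgeR adjusted p = 0.012). Atxn7l1, which encodes a protein similar to a subunit of a histone acetylation complex, was at 56.1 and 30.9 normalized counts at 2 h, and at 99.9, 82.8 and 83.1 at 0 h (log2 fold change -1.04 ± 0.24 SE, edgeR adjusted p = 0.0037). For both mRNAs the groups did not overlap, and both calls were lost without LUC 2 h replicate 2 (adjusted p = 0.13 from edgeR for each, log2 fold change -0.80 for Lfng and -0.64 for Atxn7l1). Exons of Atxn7l1 overlap those of Atxn7l1os2 on the other strand.
Prr5, which encodes a subunit of the kinase complex mTORC2, was at 14.5 and 21.0 normalized counts at 2 h, and at 47.8, 25.9 and 44.7 at 0 h (log2 fold change -1.09 ± 0.40 SE, edgeR adjusted p = 0.0499). Its groups did not overlap, but it passed narrowly, and the call was lost without either LUC library of 2 h and without replicate 1 or 3 of 0 h (edgeR adjusted p up to 0.21), as well as among RNAs at a mean normalized count of 20 or more (edgeR adjusted p = 0.053). The non-coding RNA 4632404H12Rik (chromosome 3, 89767511 to 89773240) was at 18.1 and 21.0 normalized counts at 2 h, and at 32.6, 38.8 and 46.8 at 0 h (log2 fold change -1.03 ± 0.27 SE, edgeR adjusted p = 0.0080). The groups did not overlap, and the call was lost without either LUC library of 2 h, at adjusted p = 0.052 from edgeR for both.

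**Figure D2:**
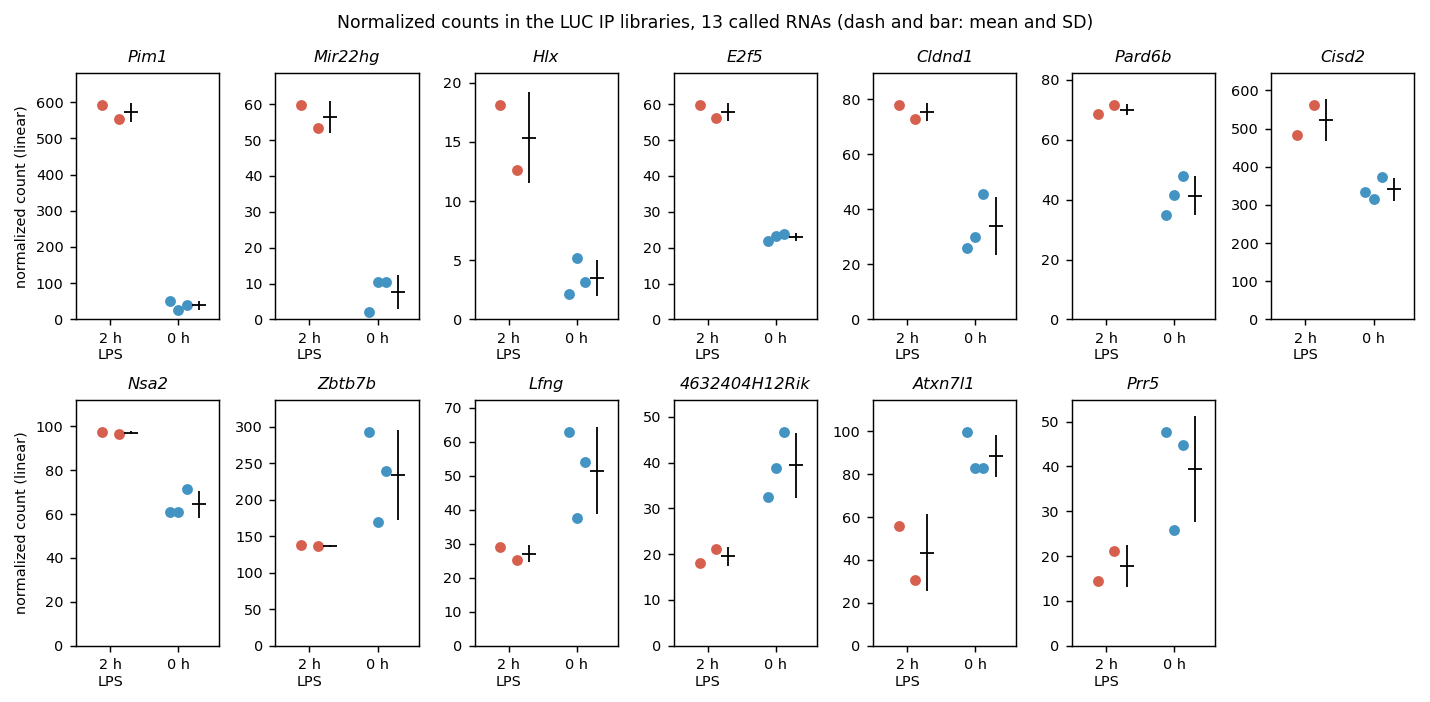
Normalized counts (vertical axes, linear, from 0) of 13 called RNAs in the LUC IP libraries of 2 h of LPS (red) and 0 h (blue), with the mean and SD of each group beside the points (n = 2 and n = 3). In every panel the groups do not overlap, and the gap is widest for Pim1, at 554 or more against 52.1 or less.

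The 3 kinesin mRNAs, which encode the spindle motor Kif15 and the transport motors Kif1b and Kif13a, were not called, at log2 fold changes of -0.10, -0.45 and -0.28 (edgeR adjusted p = 0.80, 0.18 and 0.65). Kif15 mRNA was at 219 and 118 normalized counts at 2 h, and at 185, 194 and 158 at 0 h, so that 1 library of 2 h lay above and the other below all libraries of 0 h. Kif13a showed the same order, at 19.9 and 8.4 at 2 h and 17.4, 16.8 and 15.6 at 0 h. Kif1b was at 130 and 81.3 at 2 h, and at 148, 149 and 133 at 0 h. Without LUC 2 h replicate 2 the log2 fold changes of Kif15 and Kif13a were 0.30 and 0.27, and Kif15 was at 0.0095 with libraries set to equal medians over the table, so neither direction is settled.
Of 8 mRNAs of enzymes and Golgi glycosyltransferases, Lfng was called lower and 7 were not called (median -0.30), against 11.5% of all 52 RNAs called lower. Ptges3, which encodes P23, was at 385 and 402 normalized counts at 2 h, and at 445, 302 and 350 at 0 h, with overlap (log2 fold change 0.12, adjusted p = 0.70 from edgeR). Gapdh, which encodes an enzyme of glycolysis, and Ppia, which encodes the isomerase cyclophilin A, are common reference genes, and their mRNAs were at 66.9 and 91.2 and at 30.7 and 47.7 normalized counts at 2 h. At 0 h Gapdh was at 104, 90.6 and 85.2 and Ppia at 39.1, 18.1 and 30.1, so both overlapped and neither was called (log2 fold changes -0.20 and 0.51, adjusted p = 0.54 and 0.24 from edgeR). The authors counted unique reads, so reads shared with pseudogene copies may be missing.
For the groups that follow, 26.9% of all 52 RNAs were called in either direction. None of the 7 mRNAs of ubiquitin ligases, membrane and vesicle proteins was called (median -0.07). The nearest to the threshold was Cfap36, a cilia-associated protein, at 72.3 and 91.2 normalized counts at 2 h and 54.3, 45.3 and 62.3 at 0 h, without overlap (log2 fold change 0.60, adjusted p = 0.0515 from edgeR). Of 6 mRNAs of chromatin, elongation and RNA-binding proteins, Nsa2 was called higher, Atxn7l1 lower and 4 were not called (median -0.08). Of the 3 survival and kinase mRNAs, Pim1 was called higher, Prr5 lower and Bcl2l2, an anti-apoptotic Bcl-2 family member, was not called at -0.35. Among the 7 non-coding RNAs and pseudogenes, Mir22hg was called higher and 4632404H12Rik lower. Gm16153 had no count in the LUC IPs of 2 h and 1, 1 and 0 in those of 0 h, so it has no fold.

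The change in the LUC IP lay within 0.5 (log2) of that in the input for 40 of 51 RNAs. Of the 14 called RNAs, 13 had the same sign in the input, the exception being 4632404H12Rik with an input log2 ratio of 0.08. For 10 of the 14 the exact 95% interval of the input ratio, which covers counting error only, lay on that side of 0. Across the 51 RNAs, Pearson's r between both changes was 0.86 and Spearman's rho 0.76, and r was 0.78 without Pim1. These are relations across RNAs that share libraries and size factors, and RNAs are not independent replicates. The LUC change exceeded the input change for 21 of 51 RNAs.
Pim1 was at a log2 fold change of 3.95 in the LUC IP and a log2 ratio of 4.45 in the input (interval of 4.20 to 4.70). Mir22hg was at 2.69 in the LUC IP and 1.58 in the input (0.96 to 2.23). Hlx and E2f5 were at 2.00 and 1.31 in the LUC IP, against 0.48 (-0.02 to 0.99) and 0.21 (-0.10 to 0.52) in the input. Lfng went the other way, at -0.90 in the LUC IP against -1.28 in the input (-1.71 to -0.86).
No RNA passed edgeR's test of the LUC change minus the input change (0% of 52), against 3 higher and 2 lower at an unadjusted p under 0.05. DESeq2 likewise called none, with 1 higher and 0 lower unadjusted. E2f5 was nearest, with a difference of 1.10 (standard error 0.29, adjusted p = 0.060 from edgeR). This test has 1 input per time and assumes that the lone inputs vary like the IP libraries. The call of E2f5 hung on the setting, with an adjusted p of 0.028 with equal summed counts and 0.84 with DESeq2.
Recovery relative to input was described at both times without a test, with 1 input per time. The size factors set the 0 of these ratios, so lying above or below the input does not measure yield. The log2 ratio of the LUC IP to the input had a median of 0.50 at 2 h and 0.64 at 0 h, with r = 0.91 across 51 RNAs. In 35 RNAs the LUC IP lay above the input at both times and in 11 below at both. The other 5 changed side: Hlx, E2f5, Cfap36 and Ciao2a lay above the input at 2 h (log2 ratios of 0.14, 0.86, 0.0062 and 0.057) and below it at 0 h (-1.52, -0.26, -0.26 and -0.061). Nudt3, which encodes a phosphohydrolase, lay below the input at 2 h (-0.11) and above it at 0 h (0.48).

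**Figure D3:**
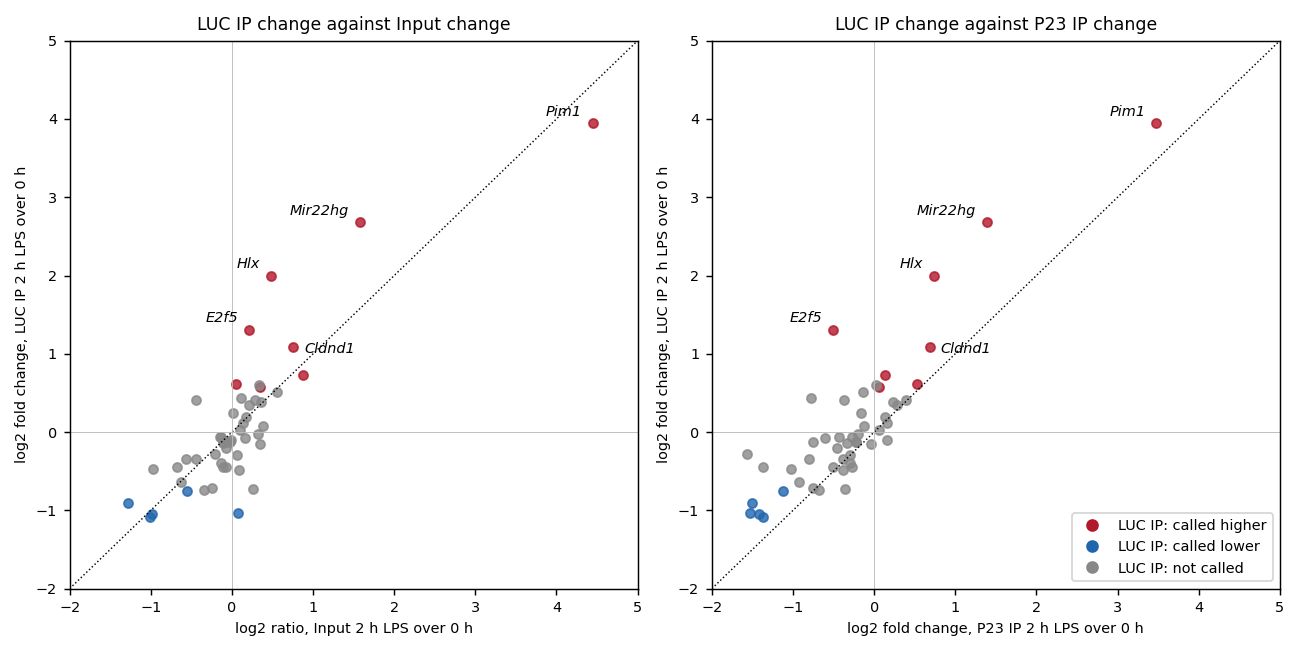
Log2 fold change of the LUC IP, 2 h of LPS over 0 h (vertical axes), against the log2 ratio of the inputs (left) and the log2 fold change of the P23 IP (right), for 50 RNAs. The dotted line marks equal change and colors mark calls in the LUC IP. Most RNAs lie near the line in the left panel and above it in the right panel, where E2f5 is at 1.31 in the LUC IP and -0.50 in the P23 IP.

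The P23 IP shares no library with the LUC IP but was tested in the same fit. It changed in the same direction for most called RNAs. In the P23 IP 6 RNAs were called higher after LPS (11.5%) and 21 lower (40.4%). High P23 values at 0 h favored entry to the table. This favors falls in the P23 IP, and its part in these calls and in those shared with the LUC IP was not tested. Of the 14 RNAs called in the LUC IP, 11 were called in the same direction in the P23 IP, which is 78.6% of the LUC list and 40.7% of the 27 in the P23 list. Pard6b and Nsa2 were called in the LUC IP and not in the P23 IP, at log2 fold changes of 0.73 and 0.58 in the LUC IP and 0.13 and 0.07 in the P23 IP, and the test of the difference missed the threshold for both (edgeR adjusted p = 0.28 and 0.36). Pearson's r between both changes was 0.88 over 51 RNAs and 0.80 without Pim1, again across RNAs. The LUC change exceeded the P23 change for 41 of the 51, with a median difference of 0.25. The choice of RNAs by P23 over LUC at 0 h favors such a difference, and its part was not tested.

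E2f5 was called in opposite directions in the IPs and was the 1 RNA (1.92% of 52) that passed the test of the LUC change minus the P23 change. None was lower, and 5 were higher and 0 lower at an unadjusted p under 0.05. The LUC and P23 values of 0 h in this test also chose the RNAs of the table. That choice favors a positive difference, and its part in the result for E2f5 was not tested. In the LUC IP E2f5 had 59.7 and 56.1 normalized counts at 2 h and 21.7, 23.3 and 23.9 at 0 h, and in the P23 IP it had 28.7, 32.7 and 32.1 at 2 h and 43.2, 47.3 and 42.2 at 0 h. Every LUC library of 2 h lay above all P23 libraries of either time, and every LUC library of 0 h lay below them. The log2 fold change was 1.31 in the LUC IP and -0.50 in the P23 IP (edgeR adjusted p = 0.00014 and 0.044), a difference of 1.81 (standard error 0.27, adjusted p = 0.00022 from edgeR). The input held 31.8 normalized counts at 2 h and 27.5 at 0 h. Mir22hg, Hlx and Kif13a had differences of 1.30, 1.26 and 1.29 and missed the threshold (edgeR adjusted p = 0.17, 0.36 and 0.28).

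**Figure D4:**
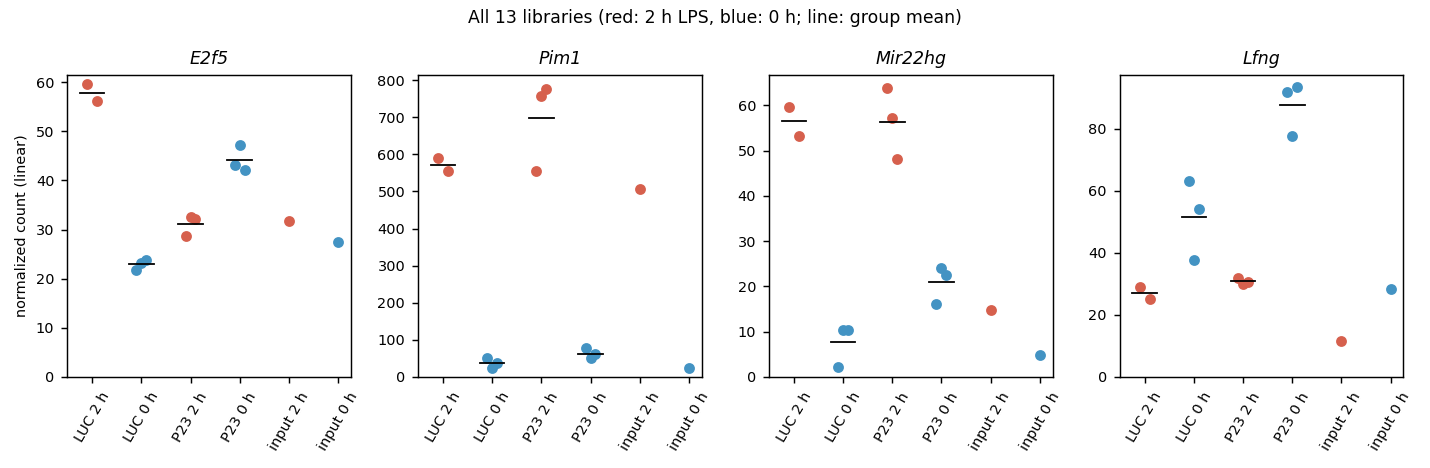
Normalized counts (vertical axes, linear) of E2f5, Pim1, Mir22hg and Lfng in all 13 libraries, by IP or input and time (red: 2 h of LPS, blue: 0 h), with lines at group means. For Pim1, Mir22hg and Lfng the values of 2 h lie on the same side of those of 0 h in the LUC IP, the P23 IP and the input. E2f5 is at 59.7 and 56.1 in the LUC IP of 2 h, above every other library.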

How the data were processed

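RNA of UV-crosslinked RAW 264.7 cells was sequenced after IP with the LUC or P23 antibody, beside inputs. The authors made the raw counts with Trimmomatic 0.33, FastQC 0.11.2, TopHat 2.0.14 (GRCm38) and HTSeq 0.6.1, as unique reads per gene without regard to strand. The deposited log2 values are variance-stabilized counts, and a single constant and 1 size factor per library, recovered from them here, describe them. Further deposited columns hold the authors' fold changes, p-values and FDR between groups and were not used. All libraries were mapped to groups by column name. All 52 identifiers matched GENCODE M21.

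Counts were tested in R 4.3.3 with edgeR 4.0.16 (quasi-likelihood model and F-test, 4 group means, 11 IP libraries, the recovered size factors, no filter, Benjamini-Hochberg over the 52 RNAs). The same fit gave the LUC change minus the P23 change, and a fit of all 13 libraries gave the LUC change minus the input change. Alternatives were DESeq2 1.42.0, limma 3.58.1 on the deposited log2 values, plain or adding a trend and a robust prior, only the 5 LUC libraries, other scales (TMM, equal sums or medians over the table), a mean normalized count of 20 or more, a replicate block and leaving out each library. Intervals are exact at 95%. The fit was also run on simulated data. These had the same spread setting for every RNA and no choice by 0 h values, so they cannot show what that choice does.

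RNAs given in full are those called in any of these tests, the 5 largest rises and falls among RNAs at a mean normalized count of 20 or more, the kinesins, Gapdh, Ppia and Ptges3. The members, lists and tests were chosen with earlier results of these data known. The study describes the replicates as independent. Depth limits the precision of Hlx, Mir22hg, Gm15559, Ppp4r1l-ps and Gm16153, which had few counts. For 1 called RNA no values are given, and it is left out of the figures, while counts and medians over the table include it.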

Additional observations from a re-analysis of the deposited data

Results flagged for a closer look

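The LPS response of E2f5 mRNA differed between the IPs: the LUC change minus the P23 change was 1.81 on the log2 scale (standard error 0.27, adjusted p = 0.00022 from edgeR's test of the difference). The choice of RNAs by P23 over LUC at 0 h favors a difference of this sign, and its part was not tested. E2f5 rose in 2 of 2 LUC libraries of 2 h against all 3 of 0 h, and fell in 3 of 3 P23 libraries of 2 h against all 3 of 0 h. The difference was between 1.53 and 1.86 over all alternatives and left-out libraries, with adjusted p up to 0.0015 from edgeR, DESeq2 and limma.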

How the results depend on the processing

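The direction of each of the 14 called RNAs was kept under every alternative that tested it and with each LUC library left out; Hlx lies below the filter at a mean normalized count of 20 and was not tested there. In all of these 5 calls were kept, those of Pim1, Mir22hg, E2f5 and Cldnd1 among them. Against 8 RNAs higher and 6 lower, equal summed counts gave 10 and 14, and TMM and equal medians each gave 12 and 8. Leaving out each LUC library gave 5 to 9 RNAs higher and 1 to 11 lower (5 and 1 without LUC 2 h replicate 2, 6 and 3 without LUC 2 h replicate 1, and 11 lower without LUC 0 h replicate 2). With 1 library left at 2 h, it is assumed to vary like the other groups. The median log2 fold change was between -0.18 and 0.01, and TMM and equal medians shifted it by 0.13 and 0.14. Nsa2 was not called with DESeq2 (adjusted p = 0.077) or in edgeR with only the LUC libraries (0.052), where Cisd2 was not called either (0.059), and Prr5 was not called by edgeR with the filter (0.053). Kif1b was called lower with equal summed counts (-0.52, adjusted p = 0.019 from edgeR). Kif15 turned to 0.0095 with equal medians. With each LUC library left out, Kif15 was between -0.60 and 0.30 and Kif13a between -0.95 and 0.27, both highest without LUC 2 h replicate 2, and Ptges3 turned to -0.00065 without LUC 0 h replicate 2. The LUC change minus the input change called 1 RNA higher, E2f5, with TMM (1.19, adjusted p = 0.033), equal summed counts (1.21, 0.028) and the filter (1.10, 0.047), all from edgeR. The cause of these changes was not tested.

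Correlations of deviations between samples of the same replicate number were -0.11 and -0.26 between LUC 2 h and 0 h and, over all such pairs within a time or an antibody, from -0.41 to 0.45 (both between P23 and LUC of 0 h), so pairing is not established. With the replicate block, edgeR called 6 RNAs higher and 5 lower, all among the 14, and lost Cisd2 (0.62, adjusted p = 0.060), Nsa2 (0.54, 0.078) and Prr5 (-0.98, 0.067). The block left the E2f5 difference between the IPs at 1.81 (adjusted p = 0.00097 from edgeR).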
